A study of Homo sapiens with 4 samples.

Results

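The genes described were the protein-coding genes of human chromosome 19 whose symbol is ZNF followed by a number. The rule reads the symbol, the biotype and the position on GRCh37, and no measured value. GENCODE release 44 listed 249 such genes, and 247 of them, among 57820 genes of the count tables, had a row and were analysed. These included 3 read-through loci that join a pair of neighbouring genes. A stretch between 20 and 30 Mb, which held 33 of the 247 genes, was set apart because it had been seen to be low in 1 library, so its values in that library are a description and carry no test.

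ZNF genes encode proteins with arrays of C2H2 zinc fingers, which bind DNA, and many of them also carry a KRAB domain. KRAB recruits TRIM28, which brings the histone H3 lysine 9 methyltransferase SETDB1 and HP1 proteins to the bound site, often a transposable element. The genes arose by repeated tandem duplication, so they lie in clusters of close relatives, and their own zinc finger exons are known to carry histone H3 lysine 9 trimethylation.

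RNA-seq was performed on 4 libraries of untreated HAP1 cells, a near-haploid human line of myeloid leukaemia origin. Both dKO libraries came from cells without RING1A and without RING1B, which catalyse the ubiquitination of histone H2A in the Polycomb complex PRC1, and both tKO libraries from cells lacking BAP1 in addition. BAP1 takes this ubiquitin off again, and the comparison asks what its loss does where PRC1 activity is already missing. All 4 libraries thus share the loss of RING1A and RING1B. Per the methods of the study, the 2 libraries of a genotype were independent biological replicates, genes were disrupted with a STOP cassette, and the RING1B knockout cells came from a supplier. Knockout cells had been picked as resistant clones, and the clone behind each library is not given in the sources used here, so clone and genotype cannot be told apart.

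Counts in genes ranged from 16054590 to 18455410 per library, so that 3 counts, taken as the smallest level a library could show, corresponded to 0.163 to 0.187 CPM, the count scaled to a library total of 1000000. BAP1 had 2046 and 2010 counts in dKO against 158 and 107 in tKO (log2 fold change −3.77, limma adjusted p = 0.0065). RING1, which encodes RING1A, had 12, 17, 12 and 13 counts in dKO 1, dKO 2, tKO 1 and tKO 2, and RNF2, which encodes RING1B, 1421, 1561, 1262 and 1102. All libraries are from cells labelled as lacking both proteins, so these levels have no intact control to be read against. Of 10 blood markers, 5 had no count and only TAL1 exceeded 3 counts in every library, whereas all 6 markers of attached growth did. The summed level of the latter was 596 CPM in tKO 1 against 922 to 958 CPM in the other libraries. The difference lay in VIM and ITGB1, both on chromosome 10, with log2 ratios of −0.90 and −1.10 of tKO 1 to the dKO mean. CDH2, FN1 and KRT18 were at −0.03, −0.15 and 0.02, and KRT8 was weak throughout, at 0.498 to 1.17 CPM.

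The promoters of 6 genes from 20 to 30 Mb are shown because they stand for the different levels found in the tKO libraries. Each is the 250 bases before the start of the Ensembl canonical transcript, read from GRCh37 and written 5′ to 3′ on the strand of the gene, with every CG dinucleotide in capitals. ZNF429 (chr19:21688154-21688403, plus strand) and ZNF492 (chr19:22816876-22817125, plus) were low in both tKO libraries. ZNF431 (chr19:21324593-21324842, plus) and ZNF682 (chr19:20150315-20150564, minus) were near the detection limit in tKO 2 alone. ZNF91 (chr19:23578274-23578523, minus) and ZNF724 (chr19:23433197-23433446, minus) were kept in all 4 libraries. The ZNF429 stretch lies inside the annotated gene, because other transcripts of it begin further upstream.
ZNF429: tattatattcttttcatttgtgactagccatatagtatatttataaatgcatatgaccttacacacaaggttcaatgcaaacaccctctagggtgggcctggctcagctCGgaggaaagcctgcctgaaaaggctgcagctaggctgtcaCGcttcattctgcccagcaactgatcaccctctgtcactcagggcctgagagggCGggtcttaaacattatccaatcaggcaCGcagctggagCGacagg
ZNF492: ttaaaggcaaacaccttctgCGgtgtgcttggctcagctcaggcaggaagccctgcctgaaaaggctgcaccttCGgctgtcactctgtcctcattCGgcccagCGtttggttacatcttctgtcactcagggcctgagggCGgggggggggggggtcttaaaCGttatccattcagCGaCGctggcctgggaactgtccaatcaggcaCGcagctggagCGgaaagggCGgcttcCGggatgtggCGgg
ZNF431: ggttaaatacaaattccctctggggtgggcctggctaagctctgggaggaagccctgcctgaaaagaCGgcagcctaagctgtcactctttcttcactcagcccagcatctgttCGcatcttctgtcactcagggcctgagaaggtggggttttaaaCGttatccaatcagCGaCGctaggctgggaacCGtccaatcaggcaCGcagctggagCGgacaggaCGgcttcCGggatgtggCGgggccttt
ZNF682: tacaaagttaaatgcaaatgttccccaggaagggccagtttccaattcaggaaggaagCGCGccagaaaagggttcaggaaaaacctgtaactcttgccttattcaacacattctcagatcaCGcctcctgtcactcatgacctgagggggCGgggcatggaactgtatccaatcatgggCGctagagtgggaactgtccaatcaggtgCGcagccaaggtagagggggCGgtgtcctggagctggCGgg
ZNF91: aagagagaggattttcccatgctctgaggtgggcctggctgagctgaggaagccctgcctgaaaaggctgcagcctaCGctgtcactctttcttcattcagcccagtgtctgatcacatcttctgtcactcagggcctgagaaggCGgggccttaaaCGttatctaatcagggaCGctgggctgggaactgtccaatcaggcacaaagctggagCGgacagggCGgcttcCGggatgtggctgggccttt
ZNF724: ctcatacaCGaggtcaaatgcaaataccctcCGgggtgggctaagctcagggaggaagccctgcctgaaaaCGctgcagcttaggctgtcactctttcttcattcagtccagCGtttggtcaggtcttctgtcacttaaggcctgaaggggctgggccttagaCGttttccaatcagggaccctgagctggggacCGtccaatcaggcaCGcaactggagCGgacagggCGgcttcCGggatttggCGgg

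These promoters held 5 (ZNF429), 13 (ZNF492), 11 (ZNF431), 8 (ZNF682), 7 (ZNF91) and 11 (ZNF724) CG dinucleotides, so the count did not order the genes by their level in tKO. The promoters of ZNF492, ZNF431, ZNF91 and ZNF724 were 80.4% to 86.8% identical to each other over 6 pairs. The 9 pairs that include ZNF682 or ZNF429 were at 59.2% to 70.8%. Over all 15 tested genes of the stretch, the 105 pairs of promoters had a median identity of 78.0%, from 58.0% to 87.6%. The count of CG dinucleotides had a median of 8 (range 3 to 13) in these 15 promoters. It was 8.5 in the 16 promoters of the stretch whose genes were not tested. The median was 17 in the 160 tested ZNF genes elsewhere on chromosome 19 and 18 in 19881 protein-coding genes. Promoters from 20 to 30 Mb were thus CG-poor whether or not the gene was transcribed in these cells.

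The letters CCGGAAG, the core of ETS factor motifs, were searched on both strands after the sequences had been seen, together with other motifs that are not reported. They occurred in 11 of the 15 promoters (73.3%) and in 62.5% of the 16 promoters of untested genes from the same stretch. The share was 25.6% in tested ZNF genes elsewhere on the chromosome, 13.0% in its other protein-coding genes and 11.9% in all protein-coding genes. Of the printed promoters, those of ZNF429 and ZNF682 lacked the letters, and the other 4 held them close to the start site. A match is a description of the sequence and not evidence of binding.

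**Figure D1:**
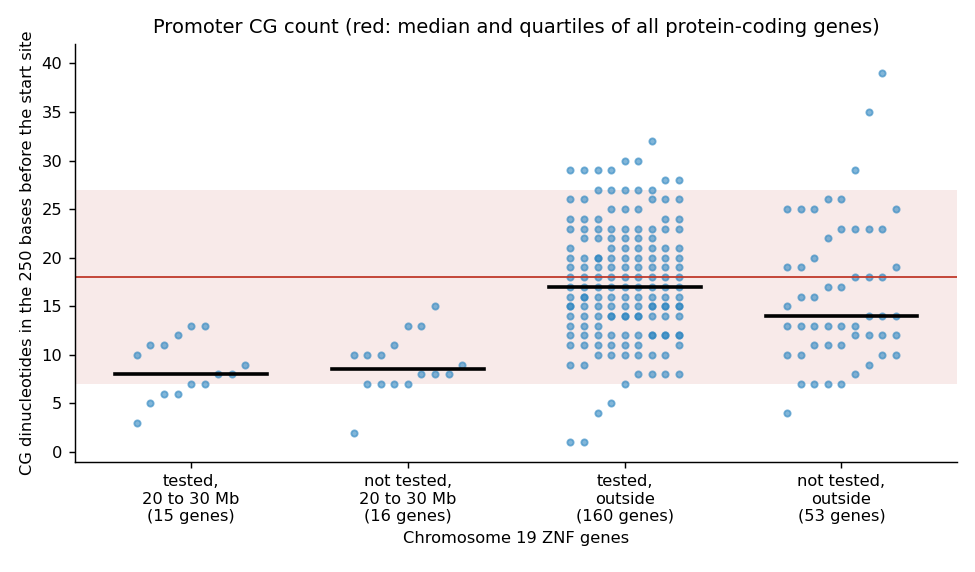
CG dinucleotides in the 250 bases before the start site (y axis) of chromosome 19 ZNF genes in 4 groups (x axis), with 1 point per gene, black bars at group medians, and a red line and band at the median (18) and quartiles (7 and 27) of all protein-coding genes. Genes from 20 to 30 Mb sit at medians of 8 and 8.5, below the medians of 17 and 14 outside this stretch.

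A large share of these genes was transcribed, at low levels. Of the 247 genes, 176 passed the filter of CPM above 0.5 in at least 2 libraries and were tested, 37 had counts but stayed below it, and 34 had no count in any library. Between 20 and 30 Mb, 15 of 33 genes were tested and 12 had no count, against 161 of 214 tested and 22 without a count elsewhere. Among genes kept by the filter, ZNF429 and ZNF730 passed through the dKO libraries alone and ZNF329 through the tKO libraries alone, so a difference was built into these 3.

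Per length of exon, the mean level of the tested genes had a median of 1.95 CPM per kb, against 4.39 for 215 tested ZNF genes of other chromosomes and 6.48 for all 12575 tested protein-coding genes. ZNF146, whose protein consists almost only of zinc fingers and has no KRAB domain, was far above the rest at 57.7 CPM per kb, with 4148, 3887, 4536 and 3840 counts in dKO 1, dKO 2, tKO 1 and tKO 2. It was followed by ZNF428 (18.8 CPM per kb), ZNF581 (11.7), ZNF317 (11.1) and ZNF266 (10.7). None of these 5 genes reached an unadjusted p of 0.05 in limma, and their log2 fold changes lay between −0.08 and 0.23. Levels per length between 20 and 30 Mb had a median of 0.860 CPM per kb and a maximum of 3.09 CPM per kb, in ZNF254.

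**Figure D2:**
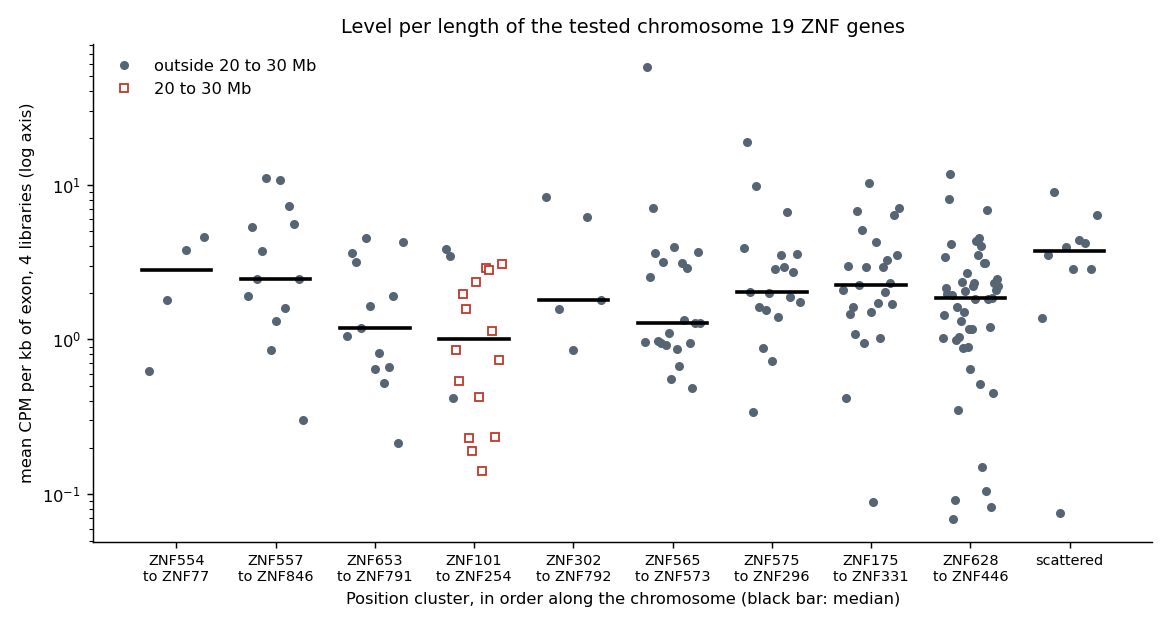
Mean level over the 4 libraries in CPM per kb of exon (log y axis) of the 176 tested genes in 9 position clusters and the scattered genes (x axis, named by first and last gene), with 1 point per gene and black bars at medians. ZNF146 stands alone at 57.7 CPM per kb, and the genes from 20 to 30 Mb (red open squares) all lie at or below 3.09 CPM per kb.

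Genes were grouped in clusters by position, with a new cluster wherever the next start was over 1 Mb away. From the short-arm end these ran from ZNF554 to ZNF77 (chr19:2819866-2944969), ZNF557 to ZNF846 (chr19:7069714-9903856), ZNF653 to ZNF791 (chr19:11594242-12750912) and ZNF101 to ZNF254 (chr19:19779605-24312770). On the long arm they ran from ZNF302 to ZNF792 (chr19:35168544-35455133), ZNF565 to ZNF573 (chr19:36673178-38307940), ZNF575 to ZNF296 (chr19:44029649-45579736), ZNF175 to ZNF331 (chr19:52074536-54083523) and ZNF628 to ZNF446 (chr19:55987984-58992597). The largest, ZNF628 to ZNF446, held 58 genes, and 11 genes lay in no cluster of at least 5. The most abundant gene per length of each cluster not named above was ZNF77 (4.56 CPM per kb), ZNF700 (4.55), ZNF101 (3.85), ZNF302 (8.26) and ZNF480 (10.2), and among the scattered genes ZNF507 (8.92), a zinc finger gene without KRAB.

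In the comparison of tKO with dKO, no chromosome 19 ZNF gene was differentially expressed (DE; limma adjusted p below 0.05 and absolute log2 fold change above 1). Over all 15136 genes tested, 0.0% were DE and higher and 0.0132% were DE and lower. DESeq2 called 1 of the genes, ZNF726, where it called 0.165% of all genes. At an unadjusted p below 0.05 in limma, 4 genes were higher and 6 lower, where 1.4% and 2.15% of all genes were, and the edgeR quasi-likelihood test gave 10 in all (3.5% of all genes). The 6 lower genes and ZNF726 lay between 20 and 30 Mb, the stretch set apart for its values in tKO 2, so nothing is read from their number. Among the 161 tested genes elsewhere, 4 were higher, including ZNF329, and 0 lower. The median log2 fold change was 0.118 over the 176 genes, 0.129 over the 161 outside the stretch, and −0.00137 over all genes tested. This median changed sign with the libraries used. It was −0.118 without tKO 1, 0.296 without tKO 2 and −0.0143 without dKO 2.

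Between 20 and 30 Mb the 15 tested genes had a median log2 ratio of −2.36 in tKO 2 and 0.05 in tKO 1, both relative to the dKO mean. In tKO 2, 12 of these 15 had a log2 ratio under −1, and 11 of the 161 other tested genes, against 2.83% of all genes. In tKO 1, 6 of 15 had such a ratio and 0 of 161, against 1.53% of all genes. ZNF429 and ZNF730 are in the counts of both libraries. They passed the filter through dKO alone, so a difference was built into these genes. The summed level of the 33 genes was 161, 147, 156 and 69.3 CPM in dKO 1, dKO 2, tKO 1 and tKO 2. The sum was therefore similar in 3 libraries and lower in tKO 2, although single genes were also lower in tKO 1. In bulk libraries, fewer cells that transcribe a gene and less RNA of it per cell cannot be told apart.

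**Figure D3:**
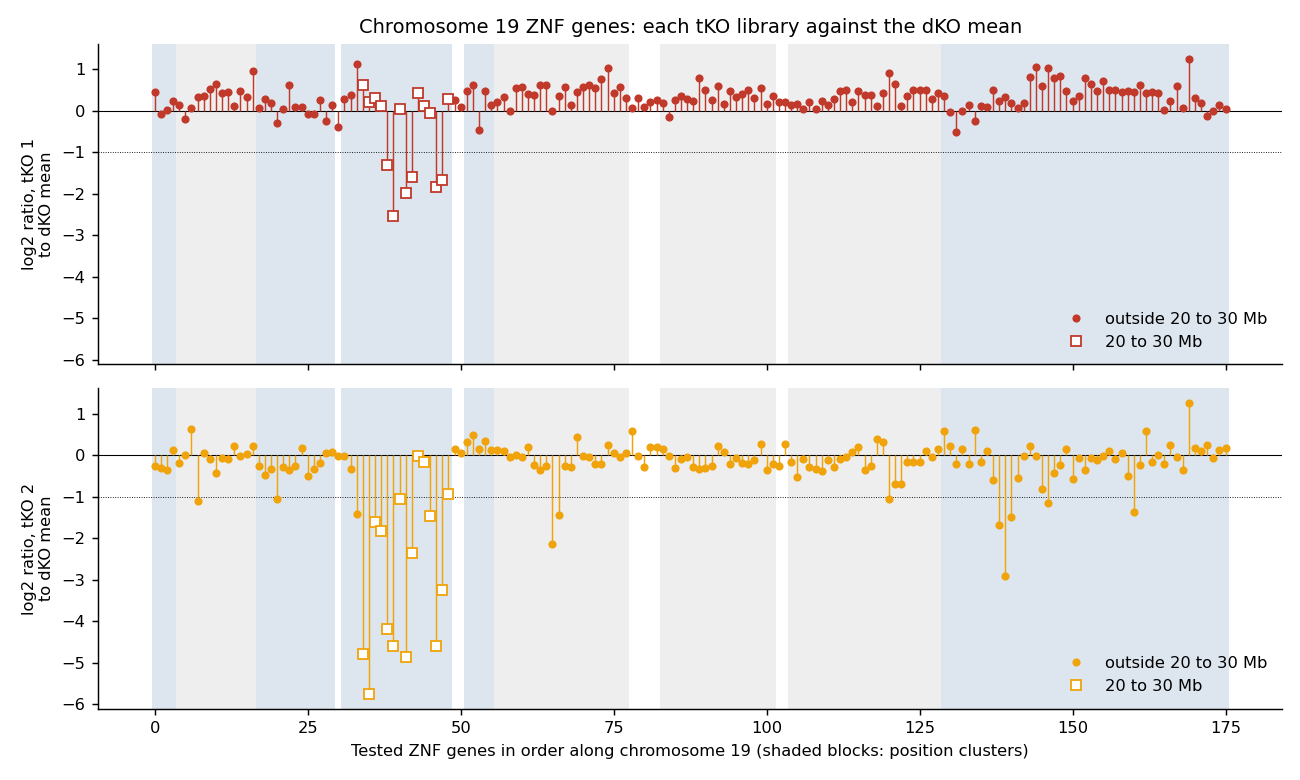
Log2 ratio of tKO 1 (top) and tKO 2 (bottom) to the dKO mean (y axes) for the 176 tested genes in their order along the chromosome (x axis), with shaded blocks marking position clusters and open squares the 15 genes from 20 to 30 Mb. In tKO 1 points sit mostly above 0 apart from 6 squares under −1, and in tKO 2 a group of 12 squares lies under −1 with 11 scattered points elsewhere.

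The first group, with a log2 ratio under −1 in both tKO libraries, comprised ZNF493, ZNF429, ZNF492, ZNF730, ZNF681 and ZNF726. ZNF429 (chr19:21679484-21739072) had 47 and 51 counts in dKO, 6 in tKO 1 and 0 in tKO 2. Its log2 fold change was −3.56 ± 0.67 (SE). ZNF429 passed the filter through the dKO libraries alone, so that both tKO libraries were below both dKO libraries was built in. At 0 counts, tKO 2 was at least 14.4-fold lower than the pooled dKO level.

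ZNF726 (chr19:24097678-24127961) had 147 and 125 counts in dKO, 37 in tKO 1 and 11 in tKO 2, so the genotypes did not overlap and tKO 2 was the lowest. Its log2 fold change was −2.45 ± 0.51 (SE). ZNF492 (chr19:22817126-22850473) had 62, 57, 12 and 0 counts in dKO 1, dKO 2, tKO 1 and tKO 2, and ZNF681 (chr19:23921997-23941693) had 55, 44, 11 and 0 counts. Both followed the order dKO, tKO 1, tKO 2 that ZNF429 and ZNF726 showed, and in tKO 2 they were at least 17.5-fold and 14.5-fold lower than the pooled dKO level.

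ZNF493 (chr19:21579921-21610379) had 93, 65, 27 and 2 counts in dKO 1, dKO 2, tKO 1 and tKO 2. ZNF730 (chr19:23258012-23330023), the lowest expressed of the group, had 14, 15, 3 and 1 counts. It too passed the filter through the dKO libraries alone, so a difference was built in. The ratio of ZNF493 in tKO 2 to the pooled dKO level was 2.87% (95% exact interval 0.345% to 10.6%). That of ZNF730 was 7.83% (0.192% to 47.2%), an interval too wide to give the size of the difference. For its 3 counts in tKO 1 the interval was 4.48% to 74.1%, so that its place in a group defined by a log2 ratio under −1 in both libraries is uncertain. Such intervals, and the fold bounds above, cover counting error only and leave out the spread between libraries. Reads copied by PCR are not independent molecules, so even the counting error may be understated. The stretch was chosen for its values in tKO 2, so the intervals and bounds for that library are no test.

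The stretch was named for tKO 2. The values of tKO 1 are read against the same dKO libraries, and results that included tKO 1 were known when it was chosen, so they are not independent support. When tKO 1 alone was set against dKO in limma, with its spread assumed equal to that of the dKO pair, 4 were DE and lower of the 13 genes whose passing the filter did not rest on dKO alone. These were ZNF492 (log2 fold change −1.99, adjusted p = 3.0e-05), ZNF681 (−1.83, 0.00047), ZNF726 (−1.66, 1.82e-06) and ZNF493 (−1.30, 0.0068). ZNF429, which passed through dKO alone, had a log2 fold change of −2.54 in this fit. Over all genes 0.859% were DE and lower in this fit and 0.315% DE and higher. No chromosome 19 ZNF gene outside the stretch was DE and lower, and ZNF506 (adjusted p = 0.0115) and ZNF543 (log2 fold change 1.05, adjusted p = 0.0192) were DE and higher.

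The second group had a log2 ratio under −1 in tKO 2 alone and comprised ZNF682, ZNF431, ZNF708, ZNF738, ZNF100 and ZNF675. ZNF431 (chr19:21324827-21378856) had 204 and 149 counts in dKO, 180 in tKO 1 and 1 in tKO 2, and ZNF682 (chr19:20107867-20150314) had 90, 86, 121 and 1 counts. In both genes the 3 other libraries were within 2-fold of each other while tKO 2 was at the detection limit. Ratios of tKO 2 to the pooled dKO level were 0.643% for ZNF431 (95% exact interval 0.0162% to 3.61%) and 1.29% for ZNF682 (0.0325% to 7.28%). Both genes lie in the stretch chosen for its values in tKO 2, so these intervals describe counting error and test nothing. No other chromosome 19 ZNF gene had at most 2 counts in 1 library and at least 50 in each of the others.

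The remaining genes of the second group kept part of their level in tKO 2. ZNF708 had 183, 168, 193 and 50 counts, ZNF738 321, 338, 320 and 81, ZNF100 326, 315, 295 and 135, and ZNF675, which encodes a TRAF6-binding zinc finger protein, 197, 146, 146 and 53 counts in dKO 1, dKO 2, tKO 1 and tKO 2. Over the whole group tKO 2 stood at 0.644% to 47.8% of the dKO mean and tKO 1 at 94.7% to 153%. The tKO libraries thus differed from each other in these 6 genes, and tKO 1 lay at or above the dKO mean in all but ZNF675.

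The third group met neither limit. ZNF91, which is known to repress SVA retrotransposons, had 557, 505, 510 and 422 counts in dKO 1, dKO 2, tKO 1 and tKO 2, and ZNF724 had 169, 155, 194 and 141. Their tKO 2 levels were 90.2% and 98.8% of the dKO mean. ZNF254 had 497, 426, 497 and 212 counts, and at 52.2% of the dKO mean in tKO 2 it lay just inside the limit.

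The 3 groups were not each confined to 1 block of the chromosome. From the telomeric side, the order was ZNF682 and ZNF431 near 0 in tKO 2, ZNF708 and ZNF738 reduced, ZNF493 and ZNF429 low in both tKO libraries, ZNF100 reduced, and ZNF492 and ZNF730 low in both. After these came ZNF724 and ZNF91, an adjacent pair that was kept, ZNF675, which was reduced in tKO 2, ZNF681 and ZNF726, low in both, and ZNF254. Of the genes low in both tKO libraries, 5 of 6 lie on the plus strand, against 2 of 6 in the second group and 1 of 3 in the third.

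**Figure D4:**
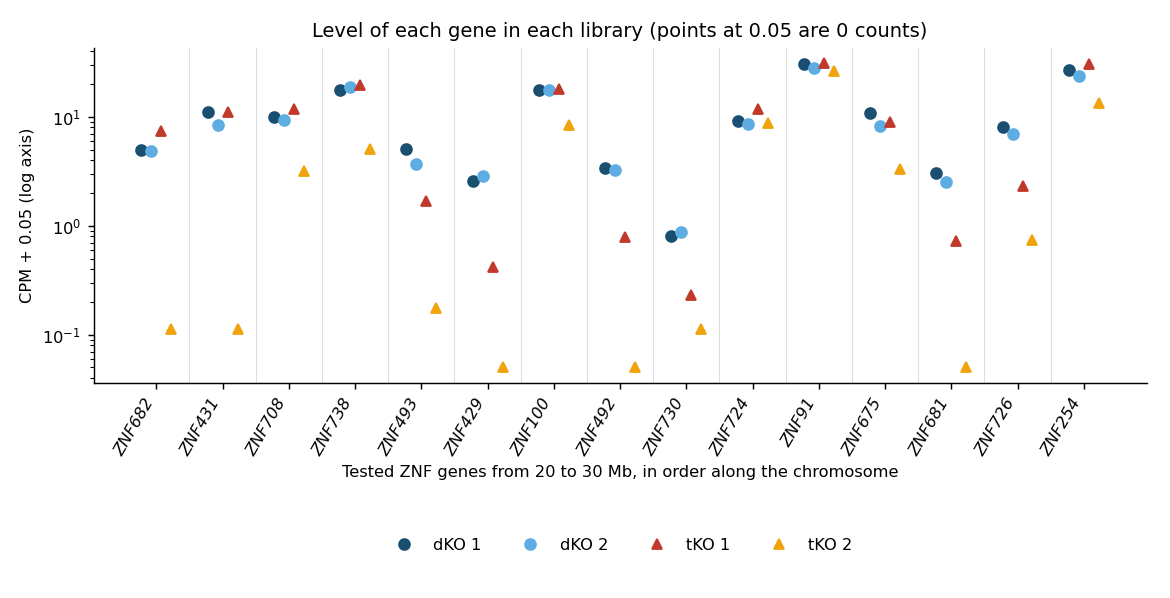
Level of the 15 tested genes from 20 to 30 Mb in each library, as CPM plus 0.05 on a log y axis, in their order along the chromosome (x axis), with circles for dKO and triangles for tKO. ZNF682 and ZNF431 show 3 libraries together and tKO 2 alone near the bottom, ZNF429, ZNF492 and ZNF681 step down from dKO over tKO 1 to 0 counts in tKO 2, and ZNF724 and ZNF91 stay level.

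Of the 18 untested genes in the stretch, none had more than 3 counts in any library. They include ZNF93, a repressor of L1 retrotransposons, with 0 counts throughout, ZNF43 with 0, 0, 0 and 2 counts, ZNF90 with 2, 3, 0 and 1, ZNF430 with 2, 1, 0 and 0 and ZNF85 with 0, 1, 0 and 0. ZNF208 had 2 counts and ZNF626 had 1, each in tKO 1 alone. ZNF486, ZNF737, ZNF66, ZNF714, ZNF257, ZNF676, ZNF729, ZNF98, ZNF99, ZNF723 and ZNF728 had none. For these genes no difference was detectable at this depth, and close relatives can lose reads that map to several copies, since only uniquely mapped reads had been counted.

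No tested protein-coding gene of another kind lies among these ZNF genes. UQCRFS1, a subunit of respiratory complex III and the only other tested protein-coding gene of the stretch, begins at position 29696227, well past the end of ZNF254 at 24312770. It had 1675, 1570, 1311 and 1330 counts in dKO 1, dKO 2, tKO 1 and tKO 2. ATP13A1, the nearest such gene on the telomeric side, had 1476, 1227, 1228 and 1449 counts, and POP4, beyond 30 Mb, 638, 654, 612 and 627. As CPM, none of these 3 neighbours was lowest in tKO 2. Among noncoding genes, the pseudogene ENSG00000213976, inside ZNF738 on the same strand, had 57, 22, 42 and 13 counts. The lncRNA ENSG00000269397, inside ZNF726 on the same strand, had 13, 17, 5 and 1, the same order as the first group. By contrast, the lncRNA ENSG00000268362, which overlaps ZNF254 on the same strand, had 137, 118, 155 and 126 counts. Its log2 ratio to the dKO mean was 0.45 in tKO 1 and 0.16 in tKO 2. LINC01224 had 389, 348, 333 and 227 counts and IPO5P1, a pseudogene, 232, 223, 239 and 185. ZNF506 (chr19:19896648-19932560), the last tested gene before 20 Mb, had 82, 49, 125 and 20 counts. It was thus lowest in tKO 2 and highest in tKO 1, and the position limit does not mark an edge in the data.

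Outside 20 to 30 Mb, 11 tested genes had a log2 ratio under −1 in tKO 2, and the values of tKO 1 lay near or above dKO in most of them. ZNF790 had 110, 84, 86 and 18 counts in dKO 1, dKO 2, tKO 1 and tKO 2, and its head-to-head neighbour ZNF345 had 108, 90, 114 and 31. The 2 genes overlap on opposite strands (chr19:37308330-37341689 and chr19:37341263-37403931), and the counts used were strand-specific. ZNF470 had 229, 174, 204 and 62 counts, and ZNF471, which lies next to it, 16, 12, 16 and 0, a level at least 4.11-fold lower in tKO 2. Low genes in tKO 2 were thus also found in adjacent pairs on the long arm.

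The others of the 5 genes most reduced from tKO 1 to tKO 2 outside 20 to 30 Mb, among those with CPM above 5 in at least 2 libraries, were ZNF28 with 120, 85, 172 and 42 counts and ZNF558 with 589, 606, 671 and 246. At the other end stood ZNF580 with 364, 342, 263 and 475 counts, ZNF599 with 98, 123, 70 and 108, ZNF414 with 119, 96, 100 and 147, ZNF584 with 339, 293, 259 and 332, and ZNF333, whose protein has a pair of KRAB domains, with 307, 310, 210 and 269. None of these last 5 reached a 2-fold difference between the tKO libraries. ZNF580 overlaps ZNF581 on the same strand, and reads that fell in both were not counted for either.

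Set against dKO alone in limma, with the lone library assumed to vary like the dKO pair, tKO 2 had 11 DE genes that were lower and 0 that were higher among the 159 tested outside 20 to 30 Mb. Over all genes this fit called 2.29% lower and 0.924% higher. The genes of the stretch were chosen for their values in this library and are left out of this count. ZNF471 and ZNF583 are in the count but passed the filter of this fit through dKO alone. For these genes a difference was therefore built in.

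Among genes with CPM above 5 in at least 2 libraries, 19 of 137 chromosome 19 ZNF genes were over 2-fold lower in tKO 2 than in tKO 1, of which 7 lay between 20 and 30 Mb, and 0 were over 2-fold higher. Over all 11537 such genes the shares were 2.03% lower and 1.13% higher. The dKO libraries were over 2-fold apart in 0 of the 137 genes and in 0.026% of all. The spread between the tKO libraries therefore exceeded that between the dKO libraries in these genes.

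A smaller shift was found in most genes of the family, and not in all. Outside 20 to 30 Mb, the level was lower in tKO 2 than in tKO 1 in 139 of 161 tested genes, with a median log2 difference of −0.42, and lower in dKO 2 than in dKO 1 in 131 of 161, with a median of −0.21. Over the 176 genes the counts were 154 (87.5%) and 143 (81.3%), where 49.6% and 49.2% of all genes were lower. Replicate numbers carry no stated pairing between genotypes. The summed level of the genes outside the stretch was 2595 and 2341 CPM in dKO and 3052 and 2431 CPM in tKO, so that tKO 1 was highest and the other 3 lay closer together.

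The shift was smaller in the groups used for comparison. The median difference within tKO was −0.10 and within dKO −0.11 for 215 tested ZNF genes of other chromosomes, and 0.04 and −0.04 for 702 other protein-coding genes of chromosome 19. Most transcripts of the tested chromosome 19 ZNF genes are AT-rich, with a median GC content of 42.4%. For 3149 other genes with GC content in the same interquartile range (39.6% to 45.7%), the medians were −0.05 within tKO and 0.02 within dKO, and the part of GC content in the shift was not tested. For 2067 genes in the GC range of the 15 genes from 20 to 30 Mb, the median difference within tKO was −0.12, against −1.90 for those 15. The stretch of those 15 was set apart for its low values in tKO 2, so this gap partly follows from that choice. The part of GC content in it was not tested.

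**Figure D5:**
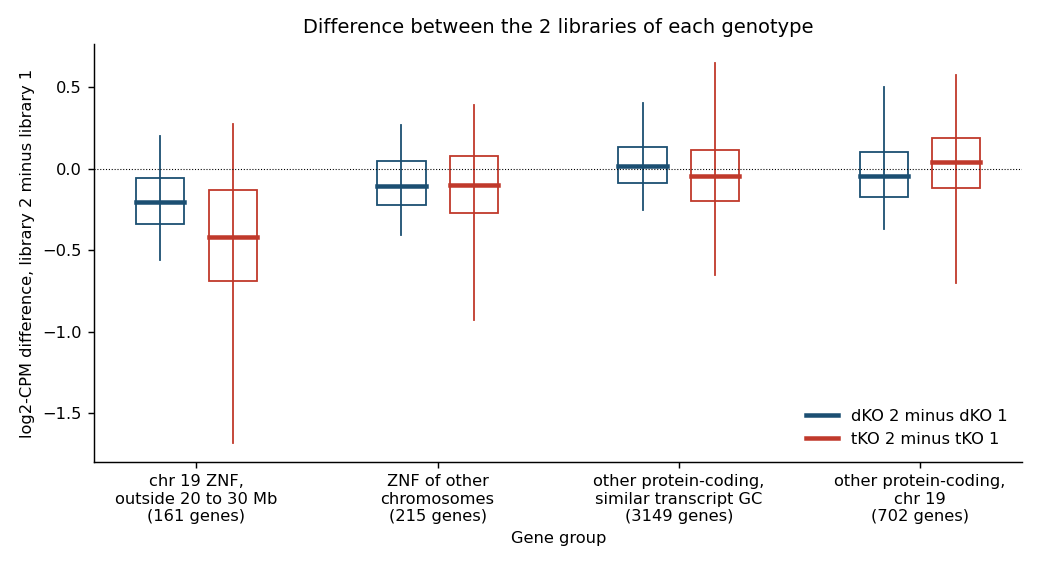
Log2-CPM difference between library 2 and library 1 of each genotype (y axis) for 4 groups of genes (x axis), with boxes at the quartiles, thick lines at the median and whiskers from the 5th to the 95th percentile of genes. Chromosome 19 ZNF genes outside 20 to 30 Mb have medians of −0.21 in dKO and −0.42 in tKO, while the other groups lie between −0.11 and 0.04.

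Relative to the dKO mean, the median log2 ratio outside the stretch was 0.33 in tKO 1 and −0.09 in tKO 2. In tKO 1 it was 0.09 for ZNF genes of other chromosomes and 0.01 for other protein-coding genes of chromosome 19. By cluster, the tKO 1 median ran from 0.09 (ZNF653 to ZNF791) to 0.50 (ZNF565 to ZNF573). In tKO 2 it was −0.29 and −0.04 in the same clusters and −0.20 in the cluster from ZNF575 to ZNF296. Every cluster therefore had a higher median in tKO 1 than in tKO 2, with the smallest gap from ZNF302 to ZNF792 (0.48 and 0.31).

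Both tKO values were above both dKO values in 32 of 176 tested genes, all outside 20 to 30 Mb, and below them in 12, of which 6 lay in the stretch. The shares over all genes were 15.8% and 15.9%. In ZNF329, among the genes above, and in ZNF429 and ZNF730, among those below, the order was built in by the filter. For genes above, 32 of 176 is close to this background, and for genes below 12 of 176 is under it. The cluster from ZNF302 to ZNF792 had 4 of its 5 genes above. ZNF302 itself (chr19:35168544-35177302) had 686 and 623 counts in dKO and 812 and 721 in tKO. Its log2 fold change was 0.40 ± 0.13 (SE), with the smallest unadjusted limma p of the higher genes (0.0174) and a limma adjusted p of 0.996. Its neighbour ZNF181 had 167 and 125 counts in dKO and 198 and 181 in tKO. The genotypes did not overlap in either gene, but the differences did not pass the threshold over all genes.

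The other genes with the smallest p in this direction were ZNF329, ZNF480 and ZNF331. ZNF329 had 3 counts in each dKO library and 9 in each tKO library, a difference of 6 counts. ZNF480 had 848, 746, 982 and 815 counts in dKO 1, dKO 2, tKO 1 and tKO 2, and ZNF331, an imprinted gene, 1055, 940, 1200 and 986. As CPM, both tKO libraries were above both dKO libraries in all 3 genes, each with a limma adjusted p of 0.996. ZNF329 passed the filter through the tKO libraries alone, so in this gene the order was built in.

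The proteins through which KRAB zinc finger proteins act were measured as a list of 19 genes, of which 18 were tested and 1 was not analysed here. None was DE, 9 had a positive and 9 a negative log2 fold change, and the range was −0.63 to 0.37. TRIM28, the KRAB corepressor, had 10329, 8165, 9421 and 9073 counts in dKO 1, dKO 2, tKO 1 and tKO 2, and SETDB1 had 1348, 1301, 1184 and 1205. The lowest value in the list was that of TASOR, the scaffold of the HUSH complex that maintains H3 lysine 9 trimethylation. It lies on the short arm of chromosome 3 (chr3:56654160-56717293) and had 4393, 4700, 3517 and 1924 counts, a log2 fold change of −0.63 ± 0.25 (SE) with an unadjusted limma p of 0.0428 and an adjusted p of 0.996.

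TASOR was therefore lowest in tKO 2, the library in which most genes from 20 to 30 Mb were low, and its part in those values was not tested. The other HUSH subunits, MPHOSPH8 (1761, 1610, 1512 and 1309 counts) and PPHLN1 (2062, 1948, 1813 and 1779 counts), did not differ between tKO and dKO beyond the limma threshold. MORC2, an ATPase that works with HUSH, had 1059, 892, 942 and 1329 counts and the highest log2 fold change of the list, with its highest value in tKO 2. DNMT1, the maintenance DNA methyltransferase, had 6902, 6118, 6036 and 5812 counts.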

How the data were processed

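Stranded, polyadenylated RNA-seq of 2 dKO and 2 tKO libraries was grouped by the genotype in the labels. The authors trimmed reads (cutadapt through Trim Galore), removed ribosomal RNA reads with Bowtie and mapped the rest to GRCh37 with STAR. The deposited values were raw counts per GENCODE release 19 gene from uniquely mapped reads, neither normalised nor pooled. The column antisense to the gene was used. The other strand held 4.01% to 4.24% of stranded counts.

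Positions and symbols came from GENCODE release 44 on GRCh37, matched by Ensembl identifier. They were found for 97.5% of tested genes. Of the 249 listed genes, 2 are not analysed here. The members, the 20 to 30 Mb stretch and all lists were chosen with earlier results of these data known.

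Log2-CPM (TMM sizes, prior count 2) was fitted across 15136 genes with limma 3.58.1 and edgeR 4.0.16 in R 4.3.3, with genotype as the term, a mean-variance trend and Benjamini-Hochberg adjustment. Log2 ratios are on this scale, which understates changes of low genes. CPM and percentages of the dKO mean use library totals. The code was tested on simulated data. Depth was 16054590 to 18455410 counts, and floors of 3 counts cover counting error only.

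Genes named were all 33 genes from 20 to 30 Mb, the 5 smallest p in each direction, the 5 highest per length, the highest of each cluster, genes with at most 2 counts in 1 library and at least 50 in the others, and, outside 20 to 30 Mb with CPM above 5 in at least 2 libraries, the 5 extremes each way of tKO 2 to tKO 1. ZNF506, ZNF543, ZNF471 and the noncoding neighbours fall outside this rule and were named after their values were seen. Alternatives were other tests (DESeq2 1.42.0, voom, edgeR quasi-likelihood), size factors, filters, unstranded counts, a prior count of 0.25, a replicate block and leaving out each library.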

Additional observations from a re-analysis of the deposited data

How the results depend on the processing

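No chromosome 19 ZNF gene was DE with the quasi-likelihood test, voom, no trend, other size factors, no filter, CPM above 5, unstranded counts or a prior count of 0.25, and 1 (ZNF726, log2 fold change −2.33, adjusted p = 0.0219) was DE with DESeq2, which called 25 genes in all against 2. Leaving out a library left 1 library in its genotype. No gene of the list was then DE without either dKO library, and genes were DE without either tKO library, more of them without tKO 1. Many of these lay between 20 and 30 Mb, the stretch set apart for its values in tKO 2. The shares over all genes in the fits without a tKO library are given above, and they too were larger without tKO 1. Genes over 2-fold apart between the tKO libraries numbered 42 with no filter, which admits genes of few counts, against 19. The median log2 ratio from 20 to 30 Mb in tKO 2 (−2.36) stayed negative, at −1.48 with no filter, −1.47 at CPM above 5, −3.41 with a prior count of 0.25 and −1.90 against tKO 1. The median fold change was 0.087 to 0.134 with other tests, filters, scalings and prior counts, and 0.129 without the genes from 20 to 30 Mb, an alternative added after the data were seen.

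Replicate numbers are shared by label only. Deviations of same-numbered libraries correlated at 0.0581 over genes, and the replicate block gave 0 DE genes of the list, 15 with an unadjusted p below 0.05 and 13 DE genes over all tested, against 0, 10 and 2.

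Of 572 refits of 39 named genes, 28 changed sign and 23 became DE, 1 with DESeq2 (ZNF726), 17 without tKO 1 and 5 without tKO 2. ZNF28 (−0.07) was 0.23 with both the quasi-likelihood test and DESeq2. Leaving out each library gave log2 fold changes of −1.06 to 0.045 for ZNF100, −0.026 to 0.28 for ZNF101, −0.94 to 0.27 for ZNF254, −0.075 to 0.43 for ZNF266, −1.06 to 0.92 for ZNF28, −0.016 to 0.43 for ZNF317, −1.44 to 0.37 for ZNF345, −5.78 to 0.21 for ZNF431, −1.49 to 0.19 for ZNF470, −1.10 to 0.33 for ZNF558, −0.26 to 0.60 for ZNF580, −0.15 to 0.11 for ZNF581, −0.12 to 0.25 for ZNF584, −0.47 to 0.15 for ZNF599, −4.81 to 0.61 for ZNF682, −0.29 to 0.051 for ZNF700, −1.60 to 0.30 for ZNF708, −0.025 to 0.42 for ZNF724, −1.83 to 0.12 for ZNF738, −2.13 to 0.0034 for ZNF790 and −0.16 to 0.11 for ZNF91. The cause was not tested. With 2 libraries a genotype, calls rest on single libraries, and genes under 3 counts could not be compared.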
